A study of Oryza sativa with 6 samples.

Results

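Salicylate signalling and pathogenesis-related (PR) genes were examined in leaves of Balilla-4x, an artificial tetraploid of japonica rice (Oryza sativa), and of Balilla-2x, the diploid line whose chromosomes were doubled to make it. The set held 10 of the 55986 gene models in the deposited count table and was defined by a list of locus identifiers, not by a threshold on measured values. It covered the regulators NPR1, EDS1 and PAD4, the PR1 genes PR1a and PR1b, 3 PR10 genes of which the last is PBZ1, and 2 chitinases. The table gives identifiers only, so the names are those assigned to the identifiers when the set was chosen. Each line was represented by 3 libraries from leaves of 4-week-old, field-grown plants labelled as normal, with no infection or elicitor named. Whether each library stands for its own plant is not labelled, and the p-values therefore measure only the spread among these samples, which may be technical. With 1 line of each ploidy, chromosome doubling and any other difference between the lines cannot be told apart. Nor could the leaf label be checked, because the identifiers are not paired with marker genes. The ploidy could not be checked either, since read counts scaled to library size do not show genome copy number.

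Salicylic acid is the plant hormone through which resistance to biotrophic pathogens is relayed. NPR1 is the co-activator that carries its signal to the nucleus, and in Arabidopsis EDS1 and PAD4 are lipase-like partner proteins that act upstream of salicylate build-up. PR proteins are among the outputs of the pathway. Rice leaves are known for a high content of salicylate even without infection.

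The libraries held 16738447 to 17078688 counts in Balilla-4x and 17147985 to 18106962 in Balilla-2x. On the second principal component of log2 CPM (8.64% of the variance) Balilla-4x replicate 1 lay away from replicates 2 and 3, while the first component separated the lines. CPM is a gene's read count scaled to the size of its library. Of 20976 tested genes, 26.1% changed between the lines in either direction, 12.4% upward and 13.7% downward in the tetraploid (adjusted p under 0.05 in edgeR's quasi-likelihood test). Among the changed genes 47.4% were higher, against 57.3% when libraries were scaled by their totals alone.

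All 10 genes passed the filter on low counts. In Balilla-4x, PR1b and the second chitinase rose and PR1a, PAD4 and the first PR10 gene fell, so that 5 of the 10 changed, where 26.1% of all tested genes did. The other 5, NPR1, EDS1, the second PR10 gene, PBZ1 and the first chitinase, did not pass the test. At least 2-fold changes were called for 3 of the 10, both PR1 genes and the second chitinase, where 11.7% of all tested genes had one. The median log2 fold change of the set was -0.41 and its median absolute value 0.62, beside 0.011 and 0.31 over all tested genes. The genes were chosen with earlier results of these data known, so these comparisons with all tested genes are descriptions only. The count of 5 depended on which libraries were included. It stayed 5 without Balilla-4x replicate 1, and was 5 with partly other genes without Balilla-2x replicate 2. It was 1 without Balilla-4x replicate 2, and 2 when Balilla-4x replicate 3, Balilla-2x replicate 1 or Balilla-2x replicate 3 was left out. In these last fits, in the same order, changed genes of the whole table fell from 5481 to 3029, 3306, 4292 and 3269. The fold changes are relative to the other genes of a library, so they do not give amounts of RNA per cell. Whether total RNA per cell differs between the lines was not measured here. In leaf RNA as a whole, a change in a gene's share of RNA within cells and a change in the number of cells that use it cannot be told apart.

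**Figure D1:**
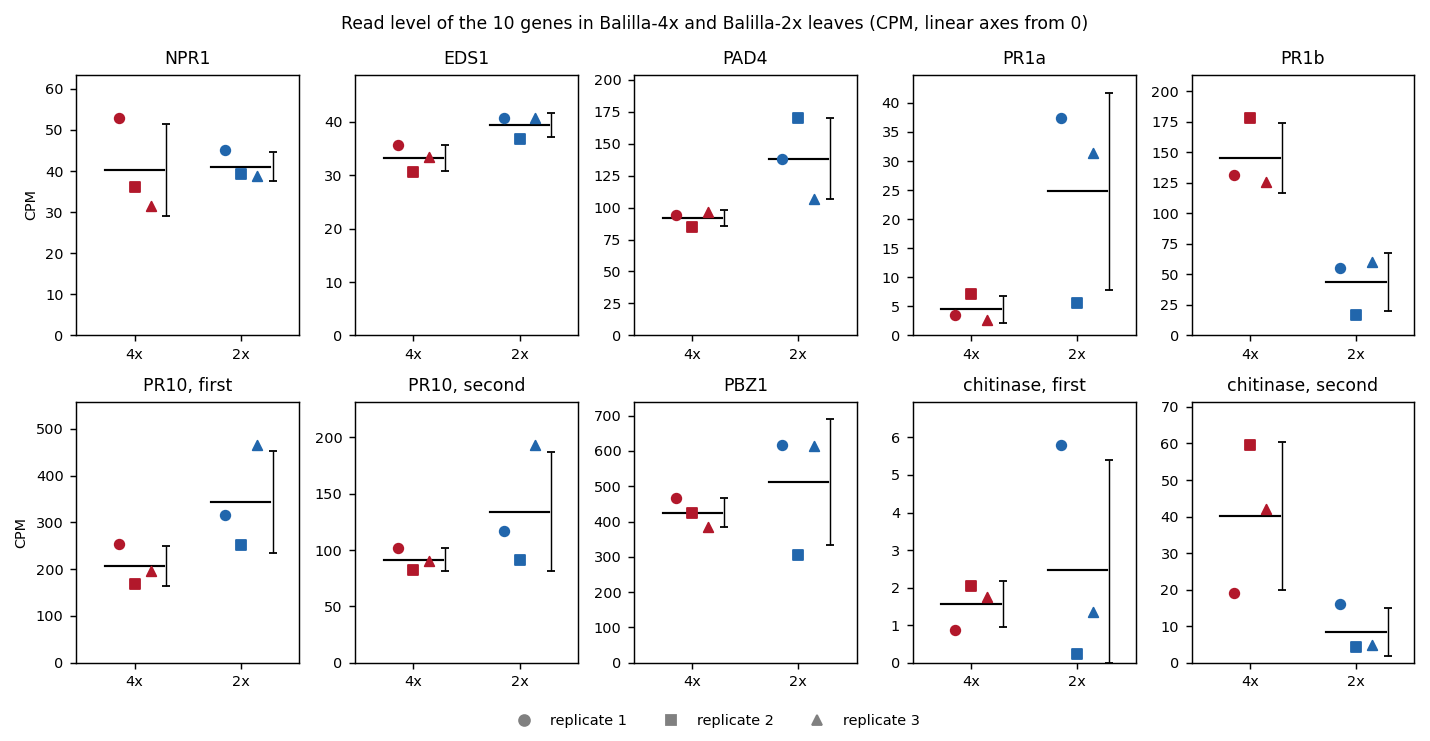
CPM of the 10 genes in each library of Balilla-4x (red, left) and Balilla-2x (blue, right) on linear axes, with the replicate number as symbol, the mean as a line and 1 SD as a bar, which is cut at 0 for the first chitinase. The Balilla-4x libraries lie above all Balilla-2x libraries for PR1b and the second chitinase and below them for EDS1 and PAD4, and Balilla-2x replicate 2 (blue square) is the lowest of its line in all 7 PR genes.

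Among the regulators, 1 of 3 fell and 2 did not pass the test. PAD4 (LOC_Os11g09010, chromosome 11) had 94.1, 84.4 and 96.4 CPM in the Balilla-4x libraries and 138, 170 and 107 CPM in the Balilla-2x libraries. All tetraploid values lay below all diploid values. Of the 10 genes, 4 showed no overlap between the lines in one direction or the other, as did 44.3% of all tested genes. PAD4 averaged 91.7 ± 6.40 CPM in Balilla-4x against 138 ± 31.6 CPM in Balilla-2x (SD, n = 3 each), a log2 fold change of -0.59 ± 0.16 (SE, edgeR adjusted p = 0.0270). The call was lost without Balilla-4x replicate 2 or 3 or Balilla-2x replicate 1 or 2, with edgeR adjusted p from 0.0626 to 0.118 in these fits, and with limma on FPKM (adjusted p 0.0504 to 0.0550). Over all alternatives the adjusted p was 0.00514 to 0.118. The log2 fold change without 1 library lay between -0.75 and -0.42.

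EDS1 (LOC_Os09g22450, chromosome 9) had 35.6, 30.6 and 33.4 CPM in Balilla-4x, against 40.7, 36.7 and 40.7 CPM in Balilla-2x. These values did not overlap either, but the difference was small, with a log2 fold change of -0.25 (95% interval -0.48 to -0.014), and it did not pass adjustment over all genes (edgeR adjusted p = 0.109). EDS1 was among the more even genes of the set, its log2 CPM having an SD of 0.11 in Balilla-4x and 0.086 in Balilla-2x.

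NPR1 (LOC_Os01g09800, chromosome 1) had 52.9, 36.2 and 31.6 CPM in Balilla-4x, against 45.1, 39.4 and 38.7 CPM in Balilla-2x. The tetraploid libraries thus lay on both sides of the diploid ones. Means were 40.3 ± 11.2 CPM in Balilla-4x against 41.0 ± 3.51 CPM in Balilla-2x (SD, n = 3 each), and the log2 fold change of -0.028 had a 95% interval of -0.44 to 0.38 (edgeR adjusted p = 0.925). The interval leaves room for a fold between 0.738 and 1.30. Its sign turned with the scaling, to 0.033 with library totals.

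The PR1 genes, which encode small secreted proteins and are widely used as markers of the salicylate response, changed in opposite directions. PR1b (LOC_Os01g28450, chromosome 1) had 131, 178 and 126 CPM in Balilla-4x, against 55.6, 16.5 and 59.8 CPM in Balilla-2x. Every tetraploid library exceeded every diploid one. Means were 145 ± 28.3 CPM in Balilla-4x against 44.0 ± 23.9 CPM in Balilla-2x (SD, n = 3 each), so that PR1b rose 3.30-fold (95% interval 1.76 to 6.18, log2 fold change 1.72 ± 0.40 SE, edgeR adjusted p = 0.0149). Of the 6 fits that each left out 1 library, the call was lost in that without Balilla-4x replicate 2, where the log2 fold change was 1.57 (edgeR adjusted p = 0.0569, and from 0.00155 to 0.0569 over all alternatives).

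PR1a (LOC_Os07g03710, chromosome 7) had 3.58, 7.16 and 2.74 CPM in Balilla-4x, against 37.4, 5.60 and 31.3 CPM in Balilla-2x. The lines overlapped, because Balilla-2x replicate 2 lay below Balilla-4x replicate 2. In reads, the tetraploid libraries had 61, 126 and 47, and the diploid libraries 658, 99 and 527. PR1a averaged 4.49 ± 2.35 CPM in Balilla-4x against 24.7 ± 16.8 CPM in Balilla-2x (SD, n = 3 each), and its log2 fold change was -2.46 ± 0.63 (SE, edgeR adjusted p = 0.0229). The call was lost without Balilla-4x replicate 3 (edgeR adjusted p = 0.0832), Balilla-2x replicate 1 (0.0675) or Balilla-2x replicate 3 (0.0684), and also with limma on FPKM, where adjusted p ran from 0.0615 to 0.0714. Without Balilla-2x replicate 2 the log2 fold change was -2.93 (edgeR adjusted p = 0.00168, the lowest over all alternatives).

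The balance between the PR1 genes was distinct in each line. FPKM, the authors' reads scaled to gene length and library total, allows genes of different length to be set side by side. The ratio of PR1b to PR1a in FPKM was 41.4, 27.9 and 51.8 in the Balilla-4x libraries and 1.68, 3.32 and 2.16 in the Balilla-2x libraries. PR1b thus exceeded PR1a in all 6 libraries, and the ratios of the lines did not overlap, Balilla-2x replicate 2, in which both genes were low, included. PR1a took 2.57% ± 0.803 of the summed FPKM of the PR1 genes in Balilla-4x against 30.7% ± 7.16 in Balilla-2x (SD, n = 3 each). The sum itself was 184 ± 40.2 FPKM in Balilla-4x and 77.8 ± 45.4 FPKM in Balilla-2x. This ratio was not tested.

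**Figure D2:**
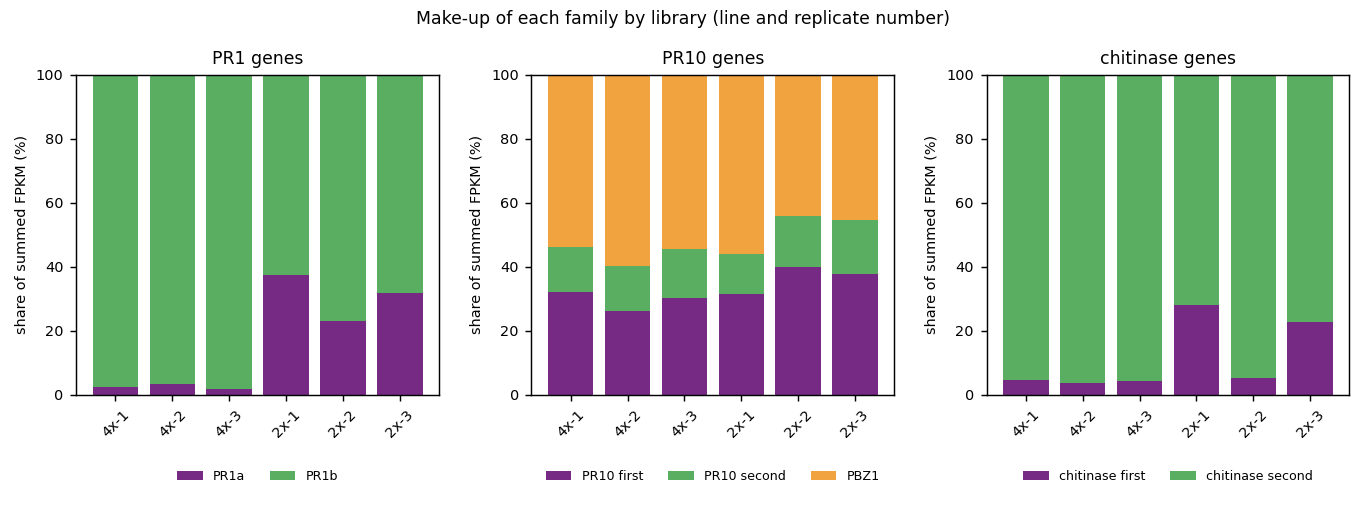
Share of each gene in the summed FPKM of its family (percent), for the 3 Balilla-4x and then the 3 Balilla-2x libraries, labelled by line and replicate number. PR1a takes 1.89% to 3.46% of the PR1 sum in Balilla-4x and 23.1% to 37.4% in Balilla-2x, while the make-up of the PR10 sum overlaps between the lines for each of its genes.

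PR10 proteins are small and intracellular, and PBZ1 was named for its induction by probenazole, a compound used to protect rice against blast disease. The 3 PR10 genes lie close together on chromosome 12, at locus numbers 36830, 36850 and 36880, which give an order and not a distance. They were the bulk of the set, with 70.9%, 62.9% and 66.8% of its reads in the Balilla-4x libraries and 75.6%, 70.4% and 81.7% in the Balilla-2x libraries. Of the 3 genes, 1 fell and 2 did not pass the test, and all log2 fold changes were below 0.

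The first PR10 gene (LOC_Os12g36830) had 253, 169 and 196 CPM in Balilla-4x, against 315, 252 and 465 CPM in Balilla-2x. The lines just overlapped, at Balilla-4x replicate 1 and Balilla-2x replicate 2. Its log2 fold change was -0.74 ± 0.23 (SE, edgeR adjusted p = 0.0446). This was the call closest to the threshold. It was lost with library totals (edgeR adjusted p = 0.0581), with genes filtered at a mean of 1 CPM (0.0518), with limma on FPKM (0.0826 to 0.0868) and without any of Balilla-4x replicates 2 and 3 and Balilla-2x replicates 1 and 3 (edgeR, up to 0.165). The lowest adjusted p over all alternatives was 0.00712.

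The second PR10 gene (LOC_Os12g36850) had 102, 81.9 and 90.7 CPM in Balilla-4x, against 117, 91.6 and 193 CPM in Balilla-2x. Its log2 fold change of -0.55 had a 95% interval of -1.10 to 0.001 (edgeR adjusted p = 0.128). PBZ1 (LOC_Os12g36880) had 467, 424 and 385 CPM in Balilla-4x, against 616, 306 and 613 CPM in Balilla-2x. Here the diploid libraries lay on both sides of the tetraploid ones, and the log2 fold change was -0.27 (95% interval -0.82 to 0.28, edgeR adjusted p = 0.449). The intervals of the 3 genes overlap, and whether their changes differ was not tested.

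The PR10 calls depended on which libraries of either line were included. Without Balilla-2x replicate 2 the log2 fold changes of the PR10 genes, in chromosome order, were -0.93, -0.76 and -0.54, and all passed the test (edgeR adjusted p = 0.0246, 0.0399 and 0.0289). Without Balilla-2x replicate 3 they were -0.47, -0.19 and -0.12, and none passed (edgeR adjusted p = 0.132, 0.405 and 0.780). Nor did any pass without Balilla-4x replicate 2 (edgeR adjusted p = 0.165, 0.323 and 0.607) or Balilla-4x replicate 3 (0.130, 0.248 and 0.675). The same held without Balilla-2x replicate 1 (edgeR adjusted p = 0.0715, 0.141 and 0.792). In the fit without Balilla-2x replicate 2, 1 of the 10 genes rose, PR1b, and 4 fell. Over all alternatives the adjusted p of the second PR10 gene was 0.0399 to 0.405 and that of PBZ1 0.0289 to 0.792. PBZ1 made up 56.1% ± 3.34 of the summed PR10 FPKM in Balilla-4x against 48.5% ± 6.49 in Balilla-2x (SD, n = 3 each), values that overlap between libraries. How reads shared by similar neighbouring copies were assigned is not given in the sources used here, so the division among the PR10 genes, and likewise between the chitinases, is uncertain.

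Chitinases cut chitin, a polymer of fungal cell walls. The 2 chitinases of the set are neighbours on chromosome 6, at locus numbers 51050 and 51060, and 1 of them rose while the other did not pass the test. The second (LOC_Os06g51060) had 19.0, 59.5 and 42.0 CPM in Balilla-4x, against 16.0, 4.36 and 4.98 CPM in Balilla-2x. The lines did not overlap, but the lowest tetraploid library was close to the highest diploid one, replicate 1 in each case. It averaged 40.2 ± 20.3 CPM in Balilla-4x against 8.45 ± 6.55 CPM in Balilla-2x (SD, n = 3 each), a 4.75-fold rise (95% interval 2.03 to 11.1, log2 fold change 2.25 ± 0.54 SE, edgeR adjusted p = 0.0172). The call was lost without Balilla-4x replicate 2 (edgeR adjusted p = 0.0688), Balilla-2x replicate 2 (0.0524) or Balilla-2x replicate 3 (0.0642), with 0.00201 the lowest value over all alternatives, and without Balilla-2x replicate 1 the log2 fold change was 3.10.

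The first chitinase (LOC_Os06g51050) was scarcely read, with 15, 36 and 30 counts in Balilla-4x and 102, 4 and 23 counts in Balilla-2x. The diploid libraries alone spanned a 25.6-fold range in CPM, around the tetraploid values. The log2 fold change of -0.66 had a 95% interval of -2.60 to 1.29 (edgeR adjusted p = 0.604) and was 0.97 without Balilla-2x replicate 1. In FPKM the second chitinase exceeded the first by 20.0, 26.9 and 22.2 times in Balilla-4x and by 2.56, 17.8 and 3.39 times in Balilla-2x, so that Balilla-2x replicate 2 came near the tetraploid ratios.

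**Figure D3:**
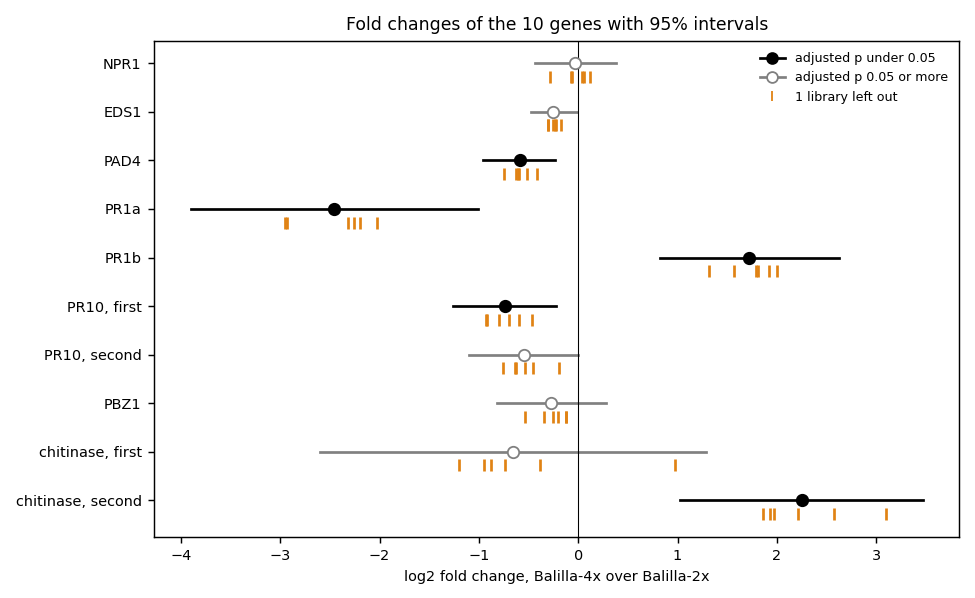
Log2 fold change of each gene, Balilla-4x over Balilla-2x, with its 95% interval (filled black, adjusted p under 0.05; open grey, not), and below it an orange tick for each fit without 1 library. PR1b and the second chitinase lie above 0 and PR1a, PAD4 and the first PR10 gene below it in all such fits, while NPR1 and the first chitinase have ticks on both sides of 0.

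Levels per length spanned more than the differences between the lines. In Balilla-4x the order of mean FPKM was PBZ1 (440 ± 46.1), the first PR10 gene (234 ± 48.0), PR1b (179 ± 37.6), the second PR10 gene (113 ± 11.8), PAD4 (36.8 ± 2.04), the second chitinase (30.3 ± 15.6), NPR1 (17.6 ± 4.95), EDS1 (15.7 ± 1.06), PR1a (4.93 ± 2.65) and the first chitinase (1.27 ± 0.500; SD, n = 3). Library ranges of neighbours in this order overlapped between the first PR10 gene and PR1b and along the run from PAD4 to EDS1, so these are not ordered beyond their spread. In Balilla-2x the mean FPKM was 508 ± 176 for PBZ1, 375 ± 121 for the first PR10 gene, 158 ± 63.1 for the second PR10 gene, 53.2 ± 12.1 for PAD4, 51.9 ± 28.2 for PR1b, 25.9 ± 17.6 for PR1a, 17.8 ± 1.04 for EDS1, 17.2 ± 1.38 for NPR1, 6.08 ± 4.69 for the second chitinase and 1.91 ± 2.27 for the first (SD, n = 3). Neighbours were separated there at 3 places, between the first and second PR10 genes, between the second PR10 gene and PAD4, and between NPR1 and the second chitinase. PR1b ranked 3 in Balilla-4x and 5 in Balilla-2x, and PR1a ranked 9 in Balilla-4x and 6 in Balilla-2x.

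Spread between libraries of a line was wide for the PR genes in the diploid and narrower for most regulators. Over the PR1 genes the median SD of log2 CPM was 0.48 in Balilla-4x and 1.27 in Balilla-2x, over the PR10 genes 0.16 in Balilla-4x and 0.55 in Balilla-2x, and over the chitinases 0.72 in Balilla-4x and 1.54 in Balilla-2x. Over the regulators it was 0.11 in Balilla-4x and 0.12 in Balilla-2x, and over all tested genes 0.19 in Balilla-4x and 0.18 in Balilla-2x. Among the regulators NPR1 in Balilla-4x (0.38) and PAD4 in Balilla-2x (0.34) were less even. In Balilla-2x the SD of the first chitinase stood at percentile 99.9 of all tested genes, of PR1a at 99.6, of PR1b at 98.2 and of the second chitinase at 98.0. In Balilla-4x the second chitinase stood highest, at percentile 96.5.

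One diploid library was low throughout the PR genes. Balilla-2x replicate 2 was the lowest of its line in 7 of 7 PR genes and in EDS1, but the highest in PAD4. How often this library was the lowest of its line over all tested genes was not counted. In Balilla-4x no library had this place, each being the lowest in 2 or 3 of the 7 PR genes. The 10 genes together took 0.118%, 0.111% and 0.101% of all counts in the Balilla-4x libraries and 0.135%, 0.0903% and 0.153% in the Balilla-2x libraries, with Balilla-2x replicate 2 again the lowest. This sum is mostly PR10 reads (62.9% to 81.7% of it by library), so it adds little to the order of the single genes. Its total of 18036653 counts was not low. Nothing in the labels sets this library apart.

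Loci next to the 10 genes were taken from the identifiers, as those within 200 locus numbers on either side. There were 252, of which 92 were tested, and 27 of these changed (29.3%, beside 26.1% of all tested genes), 6 higher and 21 lower in Balilla-4x. Leaving out a library changed the 27 to between 15 (Balilla-4x replicate 2) and 32 (Balilla-4x replicate 1), with 17 for Balilla-4x replicate 3. In these fits, in the same order, changed genes of the whole table went from 5481 to 3029, 6600 and 3306. The calls were uneven between the windows, which hold few tested loci, and this was not tested. Of all tested genes, 12.4% were higher and 13.7% lower. Around PAD4, 1 of 13 tested loci was higher and 6 were lower, around the PR10 genes 0 of 19 were higher and 7 lower, and around PR1b 0 of 3 changed. Around PR1a 1 of 14 was higher and 3 lower, around the chitinases 1 of 22 was higher and 3 lower, around NPR1 2 of 13 were higher and 1 lower, and around EDS1 1 of 8 was higher and 1 lower.

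Among changed neighbours with a mean of at least 1 CPM, the largest falls exceeded that of PR1a, the largest fall in the set. LOC_Os11g08830, near PAD4, had 0.586, 1.14 and 0.642 CPM in Balilla-4x, against 13.9, 18.1 and 16.3 CPM in Balilla-2x (log2 fold change -4.34 ± 0.27 SE, edgeR adjusted p = 2.01e-05). LOC_Os11g09180, also near PAD4, had 3 reads in all Balilla-4x libraries together and 119 in the Balilla-2x libraries, a ratio of Balilla-2x to Balilla-4x of 39.4 (exact 95% interval 13.2 to 194, counting error only). PAD4 itself, between them, fell far less. On the rising side, LOC_Os06g51260, near the chitinases, had 2.46, 9.44 and 3.91 CPM in Balilla-4x, against 0.965, 1.13 and 1.60 CPM in Balilla-2x (log2 fold change 2.09 ± 0.51 SE, edgeR adjusted p = 0.0185). LOC_Os01g09620, near NPR1, averaged 18.1 ± 3.18 CPM in Balilla-4x against 7.16 ± 3.63 CPM in Balilla-2x (SD, n = 3 each, log2 fold change 1.34, edgeR adjusted p = 0.0153). The files give these loci no name.

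**Figure D4:**
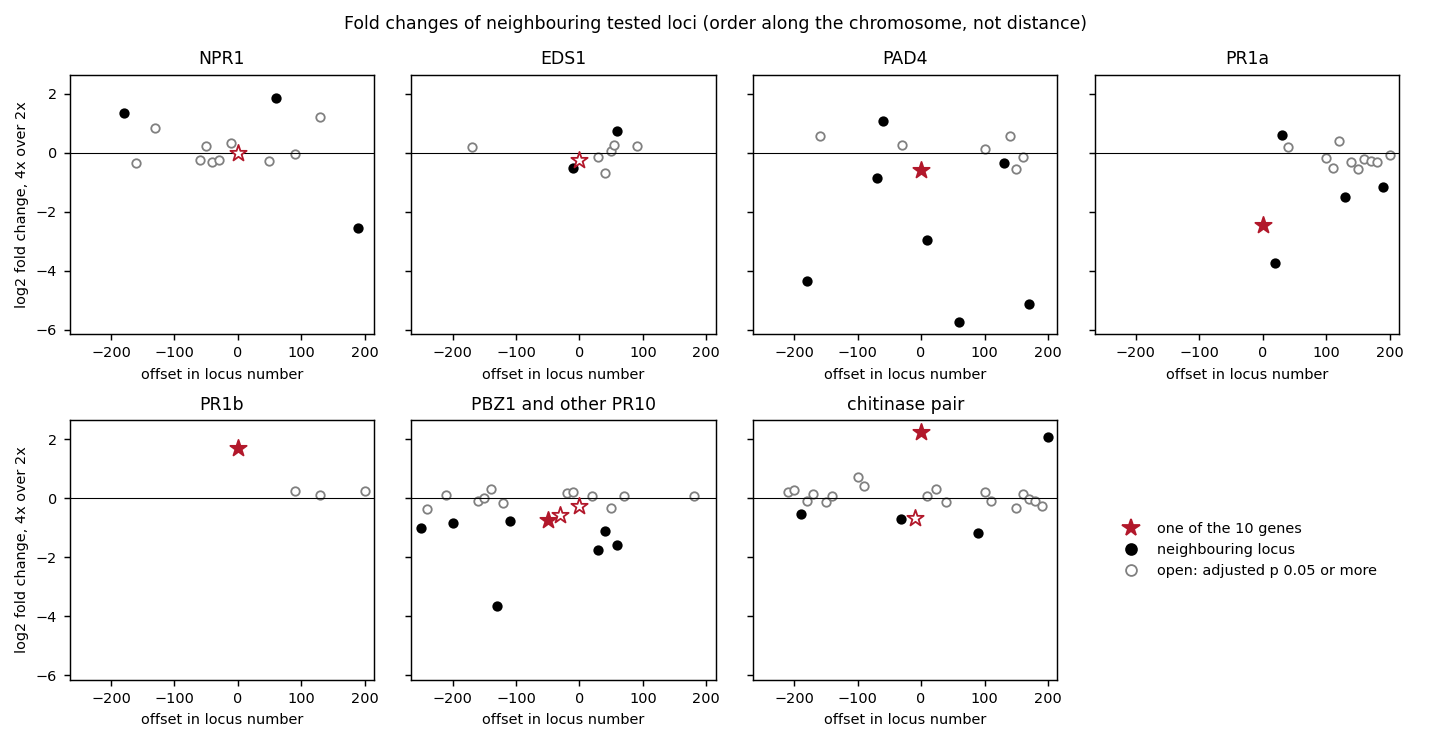
Log2 fold change, Balilla-4x over Balilla-2x, of the tested loci within 200 locus numbers of each gene or cluster, against the offset in locus number from the gene (from PBZ1 and from the second chitinase for the clusters). Stars are the 10 genes and circles their neighbours, filled where adjusted p is under 0.05; black circles fall below 0 around PAD4 (6 of 13) and the PR10 genes (7 of 19).

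PR1b had the lowest adjusted p of the set, and the loci whose log2 CPM followed it most closely over the 6 libraries were LOC_Os03g43510 (Pearson r = 0.9949) and LOC_Os01g15220 (r = 0.9934). Both were scarce. LOC_Os03g43510 had 42, 48 and 42 counts in Balilla-4x and 26, 10 and 23 counts in Balilla-2x. LOC_Os01g15220 had 18, 30 and 14 counts in Balilla-4x and 6, 0 and 5 counts in Balilla-2x. Like PR1b, both loci were highest in Balilla-4x replicate 2 and lowest in Balilla-2x replicate 2. LOC_Os03g43510 did not pass the test (edgeR adjusted p = 0.0599), and LOC_Os01g15220 did (0.0393). An r above 0.95 was reached by 150 of 20966 other tested loci (0.715%). The libraries form a cluster for each line, so r is given as a description only.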

How the data were processed

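RNA of rice leaves was sequenced in 3 Balilla-4x and 3 Balilla-2x libraries. The authors deposited raw read counts per gene for all libraries and FPKM values for each, per the file headers. Per the submitters' processing notes, HISAT2 2.1.0 was used. How reads were counted, on which build and annotation and whether by strand is not given in the sources used here. None of the identifiers matched the RefSeq gene table (0 of 55986), so no coordinates or sequences are printed, and lists of leaf markers and of further pathway genes could not be filled.

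The count analysis used edgeR 4.0.16 (R 4.3.3) with filterByExpr, TMM scaling, the two-sided quasi-likelihood F test of Balilla-4x against Balilla-2x, and Benjamini-Hochberg adjustment over 20976 genes (threshold 0.05). Standard errors and 95% intervals come from the F statistic. CPM uses TMM-scaled totals, of which 3 counts are 0.17 to 0.178 CPM. Log2 CPM has a prior count of 2. No libraries duplicated each other (within lines, chi-square divided by its degrees of freedom was at least 8.86). Alternatives were RLE and total scaling, other filters, DESeq2 1.42.0, limma 3.58.1 on log2 of FPKM plus 0.1, 1 or 5, a replicate block and leaving out each library. Named neighbours were the 2 that rose and the 2 that fell most among changed loci with a mean of at least 1 CPM. For the gene with the lowest adjusted p, the 2 loci with the highest r are also named. The genes and lists were chosen with earlier results of these data known.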

Additional observations from a re-analysis of the deposited data

How the results depend on the processing

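Of the 10 genes, 5 changed as reported, and 5 with RLE scaling, without a filter and with DESeq2, and 4 with library totals or a mean of at least 1 CPM. The count was 2 with limma on log2 of FPKM plus 0.1, 1 or 5, where PR1b and the second chitinase were called, and 1 to 5 without 1 library. At least 2-fold changes numbered 3, against 5 by adjusted p alone and 1 to 3 without 1 library. Changed neighbours were 15 to 32 and all changed genes 3029 to 6600 without 1 library. The causes were not tested. Of 150 single-gene alternatives, 112 kept direction and call, 28 lost the call, 2 gained it and 8 turned the sign. Only the 5 called genes had a call to lose, so all 28 losses were theirs. Of 15 alternatives each, the first PR10 gene lost it in 9, PAD4 in 8, PR1a in 7, the second chitinase in 3 and PR1b in 1. NPR1 turned to 0.033 (library totals), 0.001 and 0.005 (FPKM plus 1 and 5) and ran from -0.28 to 0.12 without 1 library. The first chitinase turned to 0.19 (FPKM plus 0.1) and ran from -1.20 to 0.97. It had 4 to 102 counts in diploid libraries of near-equal totals. The labels do not say whether libraries with the same replicate number were paired. Deviations from the line means correlated between same-numbered libraries at 0.002, -0.023 and -0.044, and 0 of 6 libraries correlated best with their own number. These values do not settle whether a pairing exists. With the replicate block 4617 genes changed in all, among them 25 neighbours and 3 of the 10 genes. PAD4 (-0.57, edgeR adjusted p = 0.0526) and PR1a (-2.24, edgeR adjusted p = 0.0792) lost the call under the block.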
